A study of Homo sapiens with 8 samples.

Results

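The 8 subunit genes of TRiC, also called CCT, were followed through RNA-seq and Ribo-seq of SH-SY5Y cells in which RPS29 was knocked down. They are TCP1, CCT2, CCT3, CCT4, CCT5, CCT6A, CCT7 and CCT8, and they were taken by symbol: all 8 are listed among the 17927 symbols of the RNA-seq table and the 14019 symbols of the Ribo-seq table. SH-SY5Y is an established human neuroblastoma cell line. The 8 libraries form 4 groups of 2, namely RNA-seq of cells with a short hairpin RNA against RPS29 (shRPS29), RNA-seq of cells with a control hairpin (shCONT), and Ribo-seq of the same kinds of cells. The labels name no other treatment of the cells and no time after the hairpin was introduced, and cycloheximide was in the lysis buffer of the Ribo-seq libraries. How many hairpin sequences or clones were used was not stated in the labels. Nothing in the labels says that libraries of a group came from separate cultures, so p-values measure the spread between these libraries, which may be technical.

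TRiC is the chaperonin of the eukaryotic cytosol. It is built of paralogous subunits that sit at fixed places in a double ring and close over a folding substrate when they hydrolyse ATP. Actin and tubulin need it to reach their native state, and so do many proteins with WD repeats. Prefoldin hands it unfolded chains, and phosducin-like proteins act with it on some of them. Within the ring CCT7, CCT5, CCT2 and CCT4 form the side that binds ATP tightly, and TCP1, CCT3, CCT6A and CCT8 form the other side. Each ring holds 1 copy of each subunit. RPS29 is a protein of the small ribosomal subunit, and Ribo-seq counts the RNA fragments that ribosomes protect from RNase, so both assays together give the RNA of each subunit and its ribosome footprints.

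The genes are spread over 7 chromosomes (RefSeq, GRCh38.p14). TCP1 lies at chr6:159778498-159789602, CCT2 at chr12:69585459-69601570, CCT3 at chr1:156308968-156338292 and CCT4 at chr2:61868085-61888671. CCT5 lies at chr5:10249921-10266412, CCT6A at chr7:56051765-56063989, CCT7 at chr2:73234308-73253005 and CCT8 at chr21:29056326-29073648. The TCP1 span holds the snoRNA genes SNORA20 (chr6:159780250-159780381) and SNORA29 (chr6:159785594-159785733), and the CCT6A span holds SNORA22B (chr7:56055365-56055502) and SNORA15 (chr7:56060470-56060602). Neither table lists these 4 snoRNAs. TCP1 also overlaps an end of ACAT2, CCT3 an end of TSACC and CCT4 an end of COMMD1, and CCT4 holds the lncRNA gene LOC124907773. CCT2, CCT5, CCT7 and CCT8 overlap no other gene of the RefSeq table. Of 17 pseudogene copies of the subunits in RefSeq, 2 are listed in the RNA-seq table, CCT8P1 with at most 9 counts and CCT6P3 with at most 4. How reads shared with such copies were assigned was not stated.

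The 250 bases before the RefSeq start of CCT3 and of CCT7 are shown because these genes mark the low and the high end of the RNA changes described below. Capitals mark every match, on either strand, to 5 motifs. The motifs are the CCAAT box, whose letters are its name, the GC box with the letters GGGCGG, and the E-box with the letters CACGTG. The other two are the heat shock element, searched as GAANNTTC, and the ETS core, searched as CCGGAAG on both strands.
CCT3 (chr1:156338293-156338542, minus strand): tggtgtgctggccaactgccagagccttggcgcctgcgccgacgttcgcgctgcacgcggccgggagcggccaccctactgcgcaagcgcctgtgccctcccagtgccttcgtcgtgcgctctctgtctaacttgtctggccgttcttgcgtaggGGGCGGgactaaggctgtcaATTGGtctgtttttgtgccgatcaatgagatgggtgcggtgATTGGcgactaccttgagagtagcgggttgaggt
CCT7 (chr2:73234058-73234307, plus strand): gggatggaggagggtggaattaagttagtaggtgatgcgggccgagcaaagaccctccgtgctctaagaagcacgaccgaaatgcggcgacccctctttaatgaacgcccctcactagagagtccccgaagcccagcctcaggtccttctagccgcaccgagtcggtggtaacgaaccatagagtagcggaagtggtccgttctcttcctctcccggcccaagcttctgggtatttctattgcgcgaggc
The CCT3 window held a GC box at 95 to 90 bases before the start and CCAAT boxes at 75 to 71 and at 34 to 30 bases. The CCT7 window held none of the 5 motifs. The RefSeq table gave 9 such windows for 7 of the 8 subunits, without CCT6A. The window listed for CCT5 (chr5:10250287-10250536) lies inside the gene span, downstream of its outermost start, and so does the second of 2 windows of CCT2 (chr12:69585639-69585888). A CCAAT box was in 4 of the 9 windows, those of TCP1, CCT2, CCT3 and CCT8, against 32% of all 35116 windows of this length. A GC box was in 5 of the 9, in 4 genes since both CCT2 windows held it (42.6% of all windows). A heat shock element was in 2 of the 9, that of TCP1 and the CCT2 window inside the gene (5.78% of all windows). An ETS core was in 1 window, that of CCT2 (8.52% of all windows), and an E-box in 0 (6.34% of all windows). No matches to different motifs overlapped in the subunit windows. A match is a stretch of letters and not a shown binding site.

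The deposited values are raw counts per gene. RNA-seq libraries held 17539104 to 19156104 counts and Ribo-seq libraries 2630463 to 4375971, and in Ribo-seq the 4 genes with most counts took 35.3 to 52.3% of each library. Knockdown replicate 1 stood apart in Ribo-seq: over the genes tested its Spearman correlation was 0.432 and 0.342 with the controls and 0.696 with knockdown replicate 2, while the controls correlated at 0.806 with each other. Noradrenergic markers of the cell line were present, with a summed level of 5306 and 5464 CPM in control cells and 6023 and 5847 CPM in knockdown cells, although TH, the rate-limiting enzyme of catecholamine synthesis, was at most 0.225 CPM. Epithelial markers summed to at most 8.36 CPM, blood markers, mostly CD68, to 6.37 to 14.02 CPM, higher in both knockdown libraries than in both controls, and the endothelial markers are not listed. Mesenchymal markers summed to 219 to 293 CPM, nearly all from COL3A1. CPM are counts of a gene scaled to a common library size by the TMM method, which fixes levels relative to the other genes of a library: less RNA of a gene per cell and fewer cells with it cannot be told apart. RPS29, the targeted gene, was at 137 and 160 CPM in the control RNA-seq libraries and at 7.53 and 6.46 CPM in knockdown cells (log2 fold change -4.40, edgeR adjusted p = 6.32e-12). Its footprints were at 59.4 and 39.1 CPM against 11.6 and 7.02 CPM (-2.41, edgeR adjusted p = 0.0193), a call that ended without either control library or without knockdown replicate 2.

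The first comparison asked whether the RNA of the subunits differed between knockdown and control cells. CCT3, the gamma subunit, fell from a mean of 764 CPM to 623 CPM, and the other 7 subunits, at log2 fold changes between -0.14 and 0.12, did not pass the test. All 8 RNAs were abundant, between 270 and 780 CPM in every library. Levels are not ranked between subunits, because transcript lengths were not used here.

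CCT3 was at 749 and 780 CPM in control cells and at 647 and 599 CPM in knockdown cells (13290 and 13990 counts against 12619 and 10854). Both knockdown libraries lay below both controls, at a log2 fold change of -0.30 with a standard error of 0.0754 (edgeR adjusted p = 0.00821). CCT4, the delta subunit, was at 317 and 310 CPM against 299 and 270 CPM, again with both knockdown libraries lower, but its log2 fold change of -0.14 (SE 0.0733) was not called (edgeR adjusted p = 0.165). CCT7, the eta subunit, was at 502 and 501 CPM against 566 and 522 CPM. It was the 1 subunit with both knockdown libraries above both controls, at a log2 fold change of 0.12 (SE 0.0734, edgeR adjusted p = 0.255).

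In the other 5 subunits the libraries of the groups overlapped. TCP1, the alpha subunit after which the complex was first named, was at 405 and 401 CPM in control cells and 437 and 390 CPM in knockdown cells (log2 fold change 0.04, SE 0.0753). CCT2, the beta subunit, was at 511 and 516 CPM against 513 and 454 CPM (-0.09, SE 0.0774). CCT5, the epsilon subunit, which can form rings of its own when made alone, was at 569 and 594.5 CPM against 677.5 and 580 CPM (0.11, SE 0.0829). Knockdown replicate 1 lay above both controls for TCP1 and CCT5 and between them for CCT2, and knockdown replicate 2 lay below both for TCP1 and CCT2 and between them for CCT5. CCT6A, the widely expressed zeta subunit, was at 619 and 653 CPM against 666 and 597 CPM (-0.01, SE 0.0783). CCT8, the theta subunit, was at 348 and 373 CPM against 355 and 311 CPM (-0.12, SE 0.0789). Adjusted p-values of these 5 lay between 0.300 and 0.946 (edgeR).

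**Figure D1:**
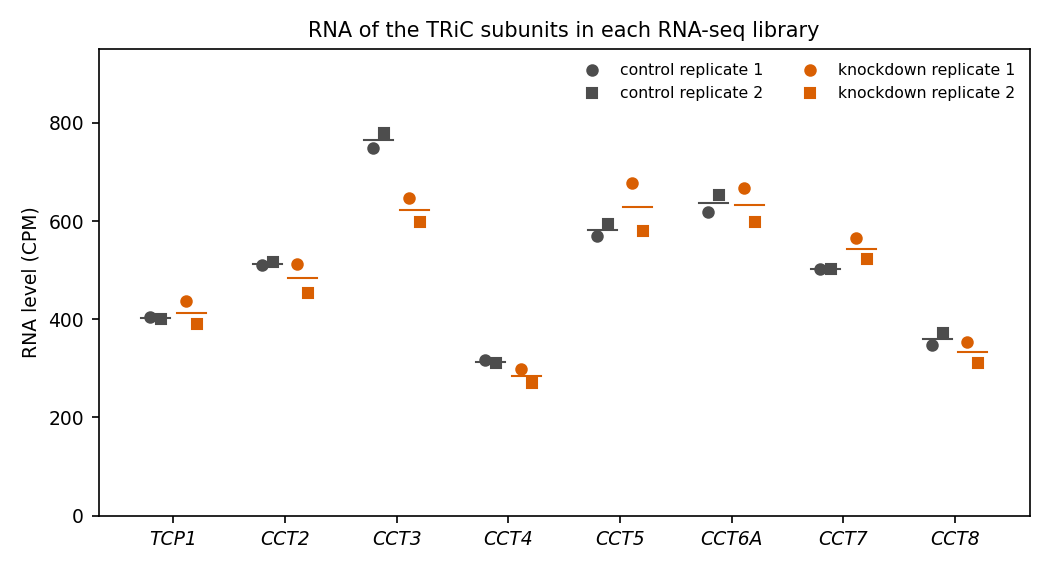
RNA level in CPM (linear axis from 0) of each TRiC subunit in the 4 RNA-seq libraries: dots are replicate 1, squares replicate 2, grey control and orange knockdown, and horizontal lines are the means of 2 libraries. CCT3 has both knockdown libraries (647 and 599 CPM) below both controls (749 and 780 CPM), and in every subunit knockdown replicate 1 lies above knockdown replicate 2.

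In all, 1 of the 8 subunits was called lower, against 16.3% of the 14723 genes tested, and 0 were called higher, against 14.4%. That 0 comes from edgeR, and it was also 0 with DESeq2, with limma-voom and at an unadjusted p under 0.05, where 19.7% of genes were higher and 20.8% lower, the latter with CCT3. Libraries did not overlap in 2 subunits lower and 1 higher, where 32.9% and 32.3% of all genes did so. These shares are near or under the background, so the counts say nothing in particular of the complex. The median log2 fold change of the 8 subunits was -0.05, against 0.01 over all genes tested and -0.04 over the 2386 genes of at least 100 RNA CPM. A common feature was the spread between the knockdown libraries: replicate 1 was above replicate 2 in 8 of 8 subunits, by 0.11 to 0.22 on the log2 scale, where the median of genes of at least 100 RNA CPM was 0.02 and 56.8% of them were above 0. The call of CCT3 was lost on leaving out either control library (adjusted p = 0.122 without replicate 1 and 0.222 without replicate 2), with its log2 fold change between -0.36 and -0.24 over the fits that left out 1 library. On leaving out knockdown replicate 1, CCT2 (-0.18), CCT4 (-0.22) and CCT8 (-0.22) were also called lower, and on leaving out knockdown replicate 2, CCT5 (0.22) and CCT7 (0.18) were called higher. With scaling to total counts alone CCT7 was called higher (0.19, adjusted p = 0.0438).

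The second comparison asked whether ribosome footprints on the subunit mRNAs differed. Footprints were lower in knockdown cells for 7 of the 8 subunits by their log2 fold change, and both knockdown libraries lay below both controls in 6. CCT6A passed the test, with a mean of 132.5 CPM in control cells and 34.5 CPM in knockdown cells. TCP1 did not follow the others, with a log2 fold change of 0.37 and libraries that overlapped. Of the genes of at least 100 RNA CPM, 78.2% had a footprint log2 fold change below 0 too.

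Among the side of the ring that binds ATP tightly, CCT5 was at 626 and 887 CPM in control cells and 221 and 303 CPM in knockdown cells (2097 and 2924 counts against 531 and 1210). This was a log2 fold change of -1.53 (SE 0.628, edgeR adjusted p = 0.150), and the groups did not overlap. CCT7 was at 144 and 201 CPM against 54.1 and 94.1 CPM (-1.22, SE 0.563, edgeR adjusted p = 0.206), without overlap. Footprints of CCT2 were at 128 and 168 CPM against 68.6 and 96.1 CPM (-0.84, SE 0.545, edgeR adjusted p = 0.389), also without overlap. In these 3 genes knockdown replicate 1, the library that stood apart, had the lowest value. CCT4 had few footprints, at 20.9 and 33.4 CPM against 17.0 and 21.8 CPM (70 and 110 counts against 41 and 87), and its groups overlapped (-0.48, SE 0.572, edgeR adjusted p = 0.681).

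On the other side of the ring, CCT6A was at 128 and 137 CPM in control cells and 28.3 and 40.6 CPM in knockdown cells, from 430 and 451 counts against 68 and 162. It fell by 1.94 on the log2 scale, with a standard error of 0.553 (edgeR adjusted p = 0.0379). The gap between the groups was far wider than the gap inside either. CCT8 was at 48.6 and 36.1 CPM against 15.8 and 15.6 CPM (163 and 119 counts against 38 and 62), without overlap (-1.43, SE 0.560, edgeR adjusted p = 0.129). CCT3 was at 120 and 143 CPM against 44.1 and 93.1 CPM (-0.93, SE 0.565, edgeR adjusted p = 0.350), without overlap. Unlike CCT8, whose knockdown libraries were nearly equal, CCT3 had a knockdown replicate 2 at over 2 times replicate 1.

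TCP1 had the widest gap between replicates of the 8 subunits on the log2 scale, in both groups. Its footprints were at 234 and 559 CPM in control cells and 192 and 835 CPM in knockdown cells, from 784 and 1842 counts against 462 and 3329. Replicate 2 was the higher library in both groups, and the difference between groups (log2 fold change 0.37, SE 0.724, edgeR adjusted p = 0.817) was smaller than the spread within them. Its sign rests on single libraries: it was -1.11 without knockdown replicate 2, -0.14 without control replicate 1 and 1.14 without control replicate 2. TCP1 holds 2 snoRNA genes. Among genes of at least 100 RNA CPM, the log2 ratio of knockdown replicate 2 to replicate 1 had a median of 0.59 in the 158 that hold a snoRNA and 0.50 in the 2160 that hold none, against 2.12 for TCP1 and 0.52 for CCT6A, the other subunit gene with snoRNAs. The part of snoRNA reads in the TCP1 value was not tested.

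**Figure D2:**
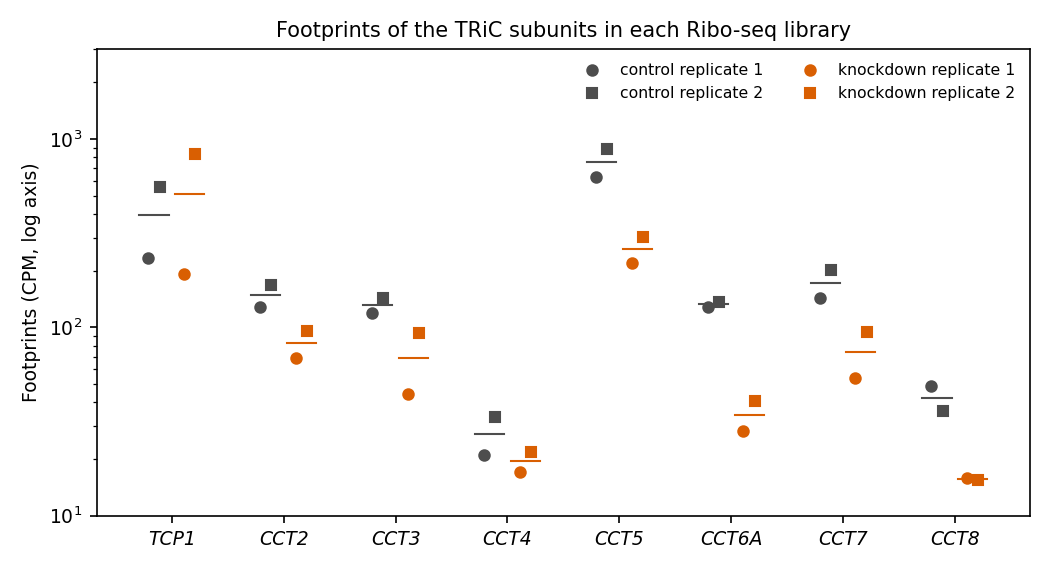
Footprints in CPM (log axis) of each TRiC subunit in the 4 Ribo-seq libraries: dots are replicate 1, squares replicate 2, grey control and orange knockdown, and horizontal lines are the means of 2 libraries. CCT6A falls from 128 and 137 CPM to 28.3 and 40.6 CPM, while the TCP1 libraries interleave between 192 and 835 CPM.

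Of the 8 subunits 1 was called lower in footprints, against 0.607% of the 11853 genes tested, and 0 higher, against 7.96%. The 0 is that of edgeR, and it was also 0 with DESeq2, with limma-voom and at an unadjusted p under 0.05, where 16.6% of genes were higher. At an unadjusted p under 0.05, 4 subunits were lower (CCT5, CCT6A, CCT7 and CCT8), where 6.50% of all genes were. DESeq2 called CCT5 and CCT6A lower and limma-voom CCT6A. Over all genes these tools called 165 and 171 lower, against 72 by edgeR. Groups did not overlap in 6 of 8 subunits lower, against 26.7% of all genes, and in 0 higher, against 29.0%. Abundant RNAs are the closer background for these genes. Among the 2321 tested genes of at least 100 RNA CPM, 51.5% had both knockdown libraries below both controls, 15.6% were lower at an unadjusted p under 0.05, and 1.38% were called lower. In the other direction 8.32% of them had both knockdown libraries above both controls and 0.776% were called higher. The median log2 fold change was -1.08 in the 8 subunits, -0.61 in those abundant genes and 0.04 over all genes tested. Of the abundant genes, 1.81% had a lower log2 fold change than CCT6A, 7.75% than CCT5, 9.78% than CCT8 and 17.5% than CCT7. CCT3 (31.4%), CCT2 (36.8%) and CCT4 (56.8%) lay in the body of that distribution and TCP1 (88.1%) near its upper end.

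The call of CCT6A was lost on leaving out control replicate 1 (adjusted p = 0.240), control replicate 2 (adjusted p = 0.401) or knockdown replicate 1 (adjusted p = 0.0799). It held on leaving out knockdown replicate 2 (adjusted p = 0.0498), and the log2 fold change lay between -2.30 and -1.69. It also ended when the fit and its scaling were limited to genes of at least 10 RNA CPM (-1.68, adjusted p = 0.0612) or 100 RNA CPM (-1.30, adjusted p = 0.0584). In the latter fit the subunit median was -0.46 and CCT4 was at 0.18. Footprint background, taken as the median footprints per kb of span in the 1094 genes under 1 RNA CPM, was 0.0268 and 0.0156 CPM per kb in the control libraries against 0.155 and 0.0750 for the knockdown. Over the subunit spans this came to at most 2.64% of the footprints in a control library. In the knockdown it was highest for CCT4 (18.7 and 7.07%) and CCT8 (16.9 and 8.35%). With this background subtracted, the log2 ratio of the mean CPM went from -1.94 to -2.00 for CCT6A, from -1.43 to -1.62 for CCT8 and from -0.48 to -0.64 for CCT4.

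The third comparison asked whether footprints per RNA changed, as the interaction of assay and condition over all 8 libraries. CCT6A was called lower, and CCT5, CCT8 and CCT7 had the next lowest values without passing the test. The ratio of footprint CPM to the mean RNA CPM of the same condition shows the levels behind it.

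For CCT6A this ratio was 0.202 and 0.215 in control cells and 0.0448 and 0.0643 in knockdown cells, a mean of 26.2% of the control mean. The interaction was -1.92 on the log2 scale (SE 0.366, edgeR adjusted p = 0.0370). CCT5 had ratios of 1.08 and 1.52 against 0.351 and 0.483 (-1.64, SE 0.409, edgeR adjusted p = 0.0597). The ratios of CCT8 were 0.135 and 0.1001 against 0.0475 and 0.0467 (-1.32, SE 0.348, edgeR adjusted p = 0.0647). These 3 genes had knockdown means of 26.2 to 40.1% of their control means, each without overlap. CCT7 had ratios of 0.287 and 0.401 against 0.0994 and 0.173 (-1.33, SE 0.445, edgeR adjusted p = 0.107). Its knockdown mean was 39.6% of its control mean, inside that range. CCT2 had 0.249 and 0.327 against 0.142 and 0.199 (-0.75, SE 0.378), and CCT3 had 0.157 and 0.187 against 0.0708 and 0.149 (-0.63, SE 0.488). The groups of CCT7, CCT2 and CCT3 did not overlap either. CCT4 (0.0666 and 0.106 against 0.0600 and 0.0768) and TCP1 (0.581 and 1.39 against 0.465 and 2.02) did.

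**Figure D3:**
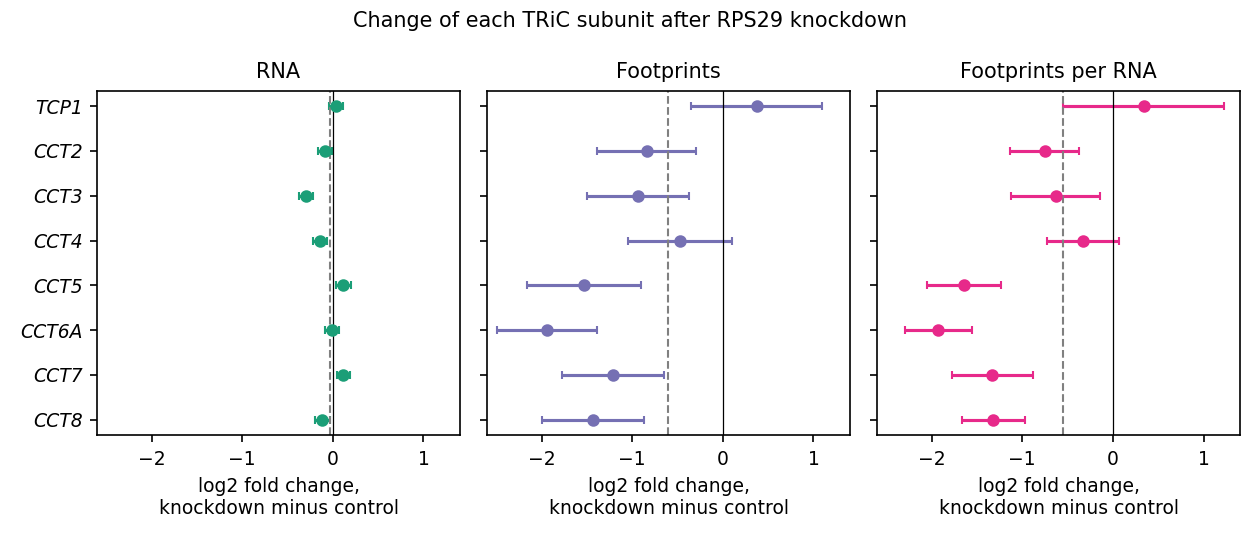
Log2 fold change of each TRiC subunit in RNA, in footprints and in footprints per RNA (dots, knockdown minus control, with standard errors as bars); the dashed line is the median of genes of at least 100 RNA CPM in that comparison (-0.04, -0.61 and -0.55). RNA values lie between -0.30 and 0.12, while footprint values run from -1.94 (CCT6A) to 0.37 (TCP1).

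Of the 8 subunits 1 was called lower in footprints per RNA, against 1.35% of the 10648 genes tested, and 0 higher, against 2.90%. The 0 is from edgeR and was also 0 with DESeq2, with limma-voom and at an unadjusted p under 0.05, where 13.8% of genes were higher. At that unadjusted p 4 subunits were lower (CCT5, CCT6A, CCT7 and CCT8), where 12.9% of all genes and 24.5% of the abundant ones were. Of the abundant genes 2.46% were called lower and 0.776% higher. With DESeq2 4 subunits were called lower (CCT5, CCT6A, CCT7 and CCT8) and with limma-voom 2 (CCT5 and CCT6A). Over all genes DESeq2 called 694 lower and limma-voom 274, against 144 by edgeR. Both knockdown ratios lay below both controls in 6 of 8, against 28.4% of all genes and 49.3% of the 2321 abundant ones, and above them in 0, against 25.3%. The subunit median was -1.04, against -0.06 over all genes and -0.55 in the abundant ones. Over the 8 fits that left out 1 library the subunit median lay between -1.37 and -0.75. The interaction of CCT6A lay between -2.29 and -1.69 over those 8 fits. Its call was lost on leaving out any of the RNA-seq libraries or Ribo-seq control replicate 2, and held without each other Ribo-seq library. Calls over all genes varied widely between these fits, so that loss need not be particular to CCT6A. The call of CCT6A also ended with no count filter (-1.94, adjusted p = 0.0535) and in the fit limited to 100 RNA CPM (-1.34, adjusted p = 0.0502). The model fits a single dispersion to the RNA and the footprints of a gene. With the separate fits subtracted, CCT6A was at -1.93 with a standard error of 0.558. The separate fits also gave larger standard errors than the model for CCT5 (0.634 against 0.409), CCT8 (0.566 against 0.348) and CCT7 (0.568 against 0.445). The same held for CCT2, CCT3 and CCT4, but not for TCP1 (0.728 against 0.886). The interaction p-values of the subunits other than TCP1 thus rest on a smaller spread than the footprints alone show.

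The order of the control ratios describes footprints per RNA in cells without the knockdown. In the controls it ran from CCT5 and TCP1, which overlapped, through CCT7 and CCT2, which overlapped, then CCT6A, then CCT3, to CCT8 and CCT4, which overlapped. CCT5 had a mean ratio of 7.04 times and TCP1 of 5.33 times the median of the 2321 abundant genes, and 97.6% and 96.7% of those genes had a lower ratio. CCT4, at 0.469 times the median, had a lower ratio than most, with 17.2% of the genes below it. In the knockdown CCT5 was at 3.31 times the median, and CCT6A went from 1.13 to 0.433 times, with 56.7% of the genes below it in control cells and 13.8% in knockdown cells. Among genes of at least 100 RNA CPM, the median control ratio was 0.268 in those holding a snoRNA and 0.180 in those holding none. TCP1 and CCT6A hold snoRNA genes, and the part of snoRNA reads in their ratios was not tested. The ratio divides 2 values of 1 gene, so length cancels only as far as both assays were counted over the same bases, which was not stated.

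**Figure D4:**
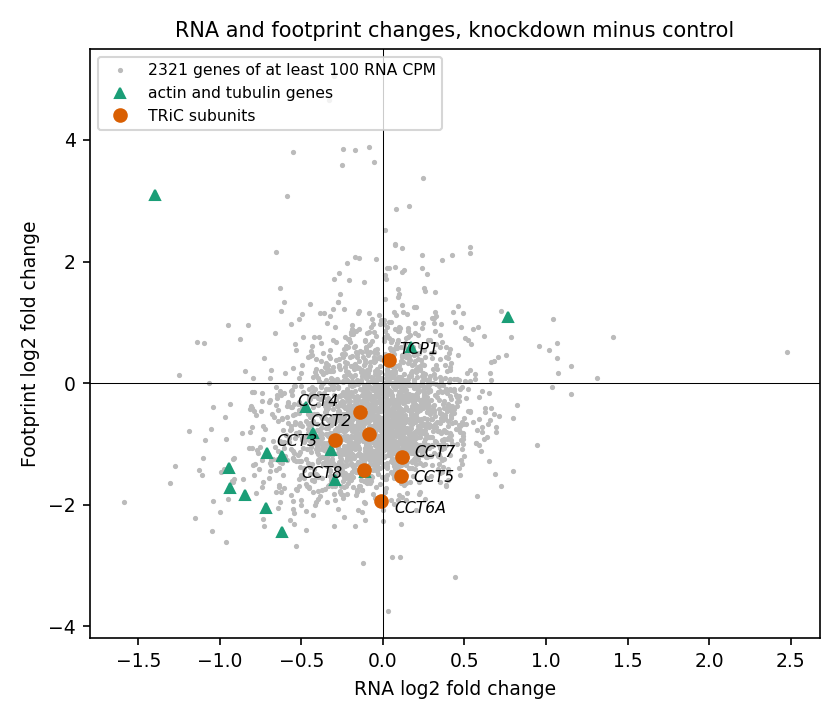
RNA log2 fold change (x) against footprint log2 fold change (y), knockdown minus control, for the 2321 genes of at least 100 RNA CPM (grey), the 15 actin and tubulin genes (green triangles) and the 8 TRiC subunits (orange). The subunits lie near 0 in RNA and mostly below 0 in footprints, whereas most actin and tubulin genes lie below 0 in both.

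Actins and tubulins are the main substrates of TRiC. Of 15 actin and tubulin genes 11 fell and 1 rose in RNA, with a median log2 fold change of -0.62 against 0.01 over all genes. Over all genes tested 16.3% were called lower and 14.4% higher, and of those of at least 100 RNA CPM 29.8% and 18.8%. TUBB3, the neuronal beta-tubulin, went from 964 and 978 CPM to 513 and 498 CPM (-0.94, SE 0.0733, edgeR adjusted p = 5.69e-07). TUBA1A, an alpha-tubulin of neurons, was at -0.94 and TUBB4B at -0.84. ACTB (-0.29) and ACTG1 (-0.32), the cytoplasmic actins, fell by about as much as CCT3, and ACTA2, the smooth muscle actin, rose (0.77). The count of those that fell was 9 to 12 when 1 library was left out, and those that rose numbered 2 without knockdown replicate 2. In footprints edgeR called 3 of the 15 lower and 1 higher, DESeq2 5 and 1, and limma-voom 5 and 0. By edgeR 0.607% of all genes were lower and 7.96% higher (1.38% and 0.776% of abundant genes). Over all genes edgeR called 72 lower and 944 higher, DESeq2 165 and 1120, and limma-voom 171 and 670. By edgeR TUBA1B (-2.44), TUBB (-2.06) and TUBB4B (-1.84) fell, and TUBA4A rose (3.10) from 9 and 5 counts to 59 and 49, against its RNA (-1.40). ACTB footprints were at 663 and 781 CPM in control cells and 177 and 301 CPM in knockdown cells and were not called (-1.59, edgeR adjusted p = 0.133). Tubulin genes are near copies of each other, so reads can be split among them.

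Of 9 tested prefoldin and phosducin-like genes 3 rose and 1 fell in RNA, with a median of 0.01 (all genes: 14.4% higher and 16.3% lower), so the share that fell was under the background. PFDN2, a beta subunit of prefoldin, went from 149 and 152 CPM to 249 and 207 CPM (0.60, SE 0.0850, edgeR adjusted p = 1.07e-04). PFDN6 (0.40) rose as well, and so did PDCL3 (0.30), a phosducin-like protein that binds TRiC, while PDCL (-0.34), which acts with TRiC on G protein beta subunits, fell. PFDN1, PFDN4, PFDN5, VBP1 and TXNDC9 did not pass. Those that rose numbered 2 without either control library, and the call of PDCL was lost without control replicate 2. Footprints of PFDN2 were at 13.4 and 13.7 CPM against 5.82 and 6.52 CPM and were not called. The same held for all 9 genes of the list (0 by edgeR, DESeq2 and limma-voom, and 0 at an unadjusted p under 0.05). Footprints per RNA of PFDN2 were called lower (-1.72, edgeR adjusted p = 0.0410), where 1.35% of all genes and 2.46% of abundant ones were. That call rests on 14 to 45 counts in a library and on a dispersion shared by both assays. Its standard error was 0.343, smaller than the 0.736 of the footprint change alone. DESeq2 also called 1 gene of the list lower in footprints per RNA, and limma-voom called 0.

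Of 6 tubulin folding cofactors, which take tubulin after TRiC, 2 rose in RNA, with a list median of 0.03 (all genes: 14.4% higher and 16.3% lower). These were TBCE (0.33) and ARL2 (0.28), and 0 fell by edgeR, DESeq2 or limma-voom, with TBCD (-0.15) lower at an unadjusted p under 0.05. DESeq2 called neither of the 2, and the edgeR calls numbered 0 with control replicate 1 or knockdown replicate 1 out and 1 with control replicate 2 out. Of 15 other substrates, mostly WD-repeat proteins, 6 fell and 2 rose, with a median of -0.23 (all genes: 16.3% lower and 14.4% higher; abundant genes: 29.8% and 18.8%), so the share that rose was near the background. GNB4, a G protein beta subunit, was at -0.39, BUB3, of the spindle checkpoint, at -0.31 and CDC20, an activator of the anaphase-promoting complex, at -0.34. Those that fell numbered 2 without control replicate 2, and those that rose 0 without either control replicate or knockdown replicate 1. In footprints no gene of these 2 lists was called by edgeR, DESeq2 or limma-voom (0). At an unadjusted p under 0.05 (edgeR), 2 of the 6 cofactors and 1 of 14 tested substrates were lower and 1 substrate higher. Of all genes 6.50% were lower and 16.6% higher at that p, and of abundant genes 15.6% and 1.90%. The substrate counts are near or under these shares of all genes.

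Other chaperones showed both directions. In the cytosolic HSP70 and HSP90 system 8 of 16 genes fell and 3 rose in RNA, with a median of -0.21 (all genes: 16.3% lower and 14.4% higher; abundant genes: 29.8% and 18.8%). The share that rose was near the background. HSPA1A, an inducible HSP70, was at -0.92 (SE 0.0746), HSPA1B, a near copy of it, at -0.66 and HSPA8, the constitutive HSC70, at -0.53. Those that fell numbered 4 without either control replicate, and those that rose 0 without control replicate 1. Footprints of HSPA4, an HSP70-type exchange factor, rose from 463 and 253 counts to 5689 and 3271 (3.89, edgeR adjusted p = 0.00601). No other gene of this list was called in footprints by edgeR, while DESeq2 and limma-voom each called 2 lower and 1 higher. By edgeR 7.96% of all genes and 0.776% of abundant ones were called higher in footprints, against 1 of the 15 tested here. Over all genes DESeq2 called 165 lower and 1120 higher, and limma-voom 171 and 670. At an unadjusted p under 0.05 (edgeR) HSP90AB1 (-1.64), STIP1 (-1.49) and DNAJA2 (-1.27) were lower, where 6.50% of all genes and 15.6% of abundant ones were. HSPD1, the mitochondrial chaperonin and the group I relative of TRiC, fell in RNA (-0.41) and in footprints, from 289 and 299 CPM to 63.6 and 88.3 CPM (-1.95, edgeR adjusted p = 0.0431), beside -1.94 for CCT6A. TRAP1, the mitochondrial HSP90, rose in RNA (0.46), and HSPE1, the partner of HSPD1, was not called (-0.20). Of the 5 mitochondrial chaperones 1 was called higher and 1 lower in RNA (all genes: 14.4% higher and 16.3% lower). These counts changed when either knockdown library was left out.

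Genes whose RNA profile over the 4 libraries was closest to the median profile of the subunits, by Euclidean distance of centred log2(CPM + 0.5), were BNIP3 (distance 0.00809), GLO1, DNAJC8, SUB1 and GET1 (distances 0.0202 to 0.0210). They came from 4831 protein-coding genes with a mean of at least 50 CPM. BNIP3 was at 81.0 and 83.7 CPM in control cells and 83.9 and 75.2 CPM in knockdown cells. The subunit profile is nearly flat, so likeness to it means little: 2187 of the 4831 genes lay closer to it than CCT3, the subunit farthest from the median.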

How the data were processed

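RNA and ribosome-protected fragments were measured in SH-SY5Y cells, with 2 knockdown and 2 control libraries per assay. The authors deposited whole-number counts by gene symbol, not normalized, as a table for RNA-seq and another for Ribo-seq. The tools named, per the submitters' processing notes, include featureCounts, STAR, Salmon, Bowtie2 and Trim Galore, and the build is hg38. What each tool did, its version, the annotation and the bases counted in Ribo-seq: not given in the sources used here.

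Tests ran on those counts in edgeR 4.0.16 (glmQLFTest, R 4.3.3), with TMM scaling, filterByExpr and Benjamini-Hochberg adjustment over all genes tested, and were called at an adjusted p below 0.05. All 8 subunits passed the filter in both assays. Footprints per RNA were tested as the assay-by-condition interaction with TMM factors within each assay. Standard errors are the absolute log2 fold change over the square root of F. Alternatives were RLE size factors, total counts alone, DESeq2 1.42.0, limma-voom (limma 3.58.1), other count filters, a test against a 1.5-fold change, fits limited by RNA level, a replicate block and leaving out each library. The fitting code was tested on simulated data. Fits limited to 100 RNA CPM, and interaction fits limited by RNA level, were chosen after seeing the data. Positions and upstream sequences are from RefSeq (GRCh38.p14).

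The members and the gene lists were chosen with earlier results of these data known. Genes named are the 8 subunits, RPS29, from each list the 3 genes of smallest p in RNA, and the 5 genes closest in RNA profile. Other genes were named after their values were seen, among them all genes named for their footprints. CCT3 and CCT7 windows were chosen for their RNA values.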

Additional observations from a re-analysis of the deposited data

How the results depend on the processing

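The RNA median of the 8 subunits ranged from -0.14 to 0.04, their footprint median from -1.57 to -0.46 and their median in footprints per RNA from -1.37 to -0.44. Each moved from its main value by less than the standard deviation of that median between replicates (0.105, 0.69 and 0.70). That spread comes from 2 libraries a group and is wide in Ribo-seq, so it sets a loose limit. The footprint median was -1.08 in the main fit and -0.46 in the fit limited to 100 RNA CPM. The full ranges are wider than these standard deviations. The counts of calls were less stable, and the cause was not tested, except that fewer genes or libraries enter some fits. With total counts alone 1 subunit was called higher in RNA and 3 lower in footprints per RNA, 521 genes were higher in footprints and 589 lower in footprints per RNA. That scaling moved the median of all genes by 0.08 in RNA, by -0.25 in footprints and by -0.33 in footprints per RNA, and the share of calls that were higher from 47.0 to 62.8% in RNA and from 68.2 to 32.7% in footprints per RNA. Under it the RNA of CCT6A was at 0.0664, BNIP3 at 0.0261, GLO1 at 0.0192, DNAJC8 at 0.0292, SUB1 at 0.0200 and GET1 at 0.0446, none called. DESeq2 called 165 genes and 2 subunits lower in footprints, and in footprints per RNA 1030 genes higher, 694 lower and 4 subunits lower. With limma-voom 171 genes were lower in footprints, and in footprints per RNA 484 were higher, 274 lower and 2 subunits lower. With no count filter 60 genes and 0 subunits were lower in footprints per RNA. With at least 50 counts in every library 239 genes were higher in footprints, and 142 higher, 58 lower and 2 subunits lower in footprints per RNA, a fit without CCT4 and CCT8. Against a 1.5-fold change 69 genes were higher, 167 lower and 0 subunits lower in RNA, and 30 genes and 0 subunits lower in footprints. Limited to 10 RNA CPM, 356 genes were higher, 28 lower and 0 subunits lower in footprints, and 180 higher and 48 lower in footprints per RNA. Limited to 100 RNA CPM, 41 were higher, 7 lower and 0 subunits lower in footprints, and 7 higher, 0 lower and 0 subunits lower in footprints per RNA, with CCT4 at 0.18 and 0.27.

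Samples share replicate numbers only: deviations of same-numbered libraries correlated at -0.06 in RNA and 0.11 in footprints over 2 pairs. With the replicate block 0 subunits were lower in RNA (CCT3 at -0.30, adjusted p = 0.0514), 397 genes and 2 subunits were lower in footprints, and 22 genes were higher, 0 lower and 0 subunits lower in footprints per RNA (CCT6A at -1.95, adjusted p = 0.0669).

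When 1 library was left out, RNA calls ranged from 1225 to 2739 genes higher and 1496 to 2876 lower, with 0 to 2 subunits higher and 0 to 4 lower. Footprint calls ranged from 247 to 694 higher and 5 to 53 lower, with 0 to 1 subunits lower. In footprints per RNA they ranged from 0 to 1778 higher and 0 to 2229 lower, with 0 to 6 subunits lower. Values that changed sign ranged from -0.0507 to 0.12 (TCP1), -0.18 to 0.00385 (CCT2), -0.00703 to 0.22 (CCT5), -0.0942 to 0.0717 (CCT6A), -0.0456 to 0.25 (MKKS), -0.14 to 0.0312 (BNIP3), -0.15 to 0.0321 (GLO1), -0.15 to 0.0511 (DNAJC8), -0.16 to 0.0401 (SUB1) and -0.12 to 0.0514 (GET1) in RNA, from -1.11 to 1.14 in footprints (TCP1), and from -1.15 to 1.10 (TCP1) and -0.66 to 0.0216 (CCT4) in footprints per RNA. Leaving out a library leaves 1 in its group, which is then assumed to vary like the other group. Depth limits CCT4 and CCT8 most, with 38 to 163 footprint counts in a library.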

Other observations

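Of the RNA counts of the 8 subunits, CCT3 held 18.6 and 18.9% in control cells and 15.6 and 16.1% in knockdown cells, CCT5 14.2 and 14.4% against 16.3 and 15.6%, and CCT7 12.5 and 12.1% against 13.6 and 14.02%. In footprints CCT5 and TCP1 together held most of the counts. CCT5 held 43.2 and 41.0% in control cells and 34.5 and 20.2% in knockdown cells, and TCP1 16.2 and 25.8% against 30.0 and 55.7%. These shares are of counts, not divided by length, and were not tested. Summed over the 8 subunits, RNA was at 4019 and 4129 CPM in control cells and 4160 and 3723 CPM in knockdown cells, with overlap. Footprints without TCP1 summed to 1215 and 1605 CPM in control cells and to 449 and 665 CPM in knockdown cells, and with TCP1 the sums were 1448 and 2163 CPM against 641 and 1500 CPM.

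Of the relatives of TRiC, CCT6B, a testis form of the zeta subunit, had 24 and 16 RNA counts in control cells and 34 and 25 in knockdown cells, against at least 10823 for CCT6A in any library, and CCT8L2 was not tested. BBS10 (0.18), MKKS (0.11) and BBS12 (-0.21), chaperonin-like proteins that help to build the BBSome of the cilium, were not called in RNA (edgeR), with 0 of 4 tested genes higher or lower, 0 at an unadjusted p under 0.05, and 0 with DESeq2 or limma-voom. On leaving out knockdown replicate 2, BBS10 and MKKS were called higher.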
